A study of Mus musculus with 8 samples.

Results

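The 10 genes described here are grouped as HIF1 targets outside glycolysis: Narf, Ddit4, Bnip3, Bnip3l, Vegfa, Ankrd37, Ero1l, Fam162a, Ndrg1, and Stc2. Whether Narf is a HIF1 target was not tested. The 10 genes were found by symbol among the 37263 Ensembl genes of the count tables. All 10 were among the 14931 genes with at least 1 CPM (counts relative to the library total) in at least 2 libraries. The genes were chosen by their response to vitamin C (vitC) in an earlier analysis of these libraries: Narf was selected on its fall, and the others are hypoxia-induced genes picked once hypoxia genes were known to be lower. The vitC ratios are therefore given as a description, with no test. RNA came from E14 mouse ESCs that were moved from serum and LIF to a serum-free medium, NDiff 227, with LIF, the MEK inhibitor PD0325901, and the GSK3 inhibitor CHIR99021 (2i). Cells were taken at 4, 16, 24, and 32 hr, without or with 17 µM vitC, and each of the 8 combinations is 1 library of ribosome-depleted total RNA. Both arms carried the same inhibitors and LIF, and no serum library was analysed here.

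HIF1 is a dimer of an oxygen-labile subunit, encoded by Hif1a, and a stable partner, encoded by Arnt. In the presence of oxygen, prolyl hydroxylases (Egln1, Egln2, and Egln3) mark the labile subunit for VHL-dependent degradation, so that control acts on protein more than on mRNA. These hydroxylases need iron and 2-oxoglutarate, as do the TET enzymes, and vitC helps to keep their iron reduced. Stabilized HIF1 binds a short core sequence and raises genes for glycolysis, vessel growth, mitochondrial turnover, mTORC1 restraint, and protein folding, and the last 4 of these roles are represented among the genes described here.

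The core of a HIF1 binding sequence is ACGTG or GCGTG, and both were searched on both strands in the 250 bases before each gene's start, taken from RefSeq (GRCm38.p6). A window was given for 8 of the 10 genes, with 2 starts for Vegfa, and Bnip3l and Ndrg1 had none. A core was found in 8 of the 9 windows, with 6 matches for Fam162a, 5 for Bnip3, 4 for Ankrd37, 3 for Ero1l, 2 each for Ddit4 and Stc2, and 1 for Narf. The upstream start of Vegfa had 0 matches and its downstream start, inside the gene, had 2. These 2 lie in protein-coding sequence of Vegfa, and the 8 windows with a core include this one. Of all 32851 RefSeq windows, 38.6% held at least 1 core, 16.6% held ACGTG, 28.2% held GCGTG, and 16.7% held 2 or more. Windows with 7 to 41 CpG dinucleotides, the range of these genes, held a core in 60.7% of 14927 cases. A match describes the letters only and says nothing of binding. The stretch from 250 to 71 bases before the start is shown for the 4 genes with the lowest mean vitC ratios, with each core, read on either strand, in capitals; overlapping cores run together, and CACGTG counts on both strands. Matches nearer the start, at base 35 for Bnip3 and base 6 for Ankrd37, lie outside the printed stretch. Narf is at chr11:121236986-121237165 on the plus strand, and Ddit4 at chr10:59951841-59952020, Bnip3 at chr7:138909577-138909756, and Ankrd37 at chr8:45999921-46000100 on the minus strand, all outside the exons annotated in GENCODE M21.
Narf: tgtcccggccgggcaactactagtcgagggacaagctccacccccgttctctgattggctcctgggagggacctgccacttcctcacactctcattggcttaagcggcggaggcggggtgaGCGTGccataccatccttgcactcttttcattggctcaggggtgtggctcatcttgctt
Ddit4: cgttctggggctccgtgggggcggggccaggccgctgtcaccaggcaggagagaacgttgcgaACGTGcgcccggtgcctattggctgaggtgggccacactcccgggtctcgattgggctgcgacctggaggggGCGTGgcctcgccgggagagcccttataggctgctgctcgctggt
Bnip3: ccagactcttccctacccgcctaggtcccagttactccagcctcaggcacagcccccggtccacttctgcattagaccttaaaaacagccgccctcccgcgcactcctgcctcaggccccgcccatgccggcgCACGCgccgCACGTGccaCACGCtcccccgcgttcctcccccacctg
Ankrd37: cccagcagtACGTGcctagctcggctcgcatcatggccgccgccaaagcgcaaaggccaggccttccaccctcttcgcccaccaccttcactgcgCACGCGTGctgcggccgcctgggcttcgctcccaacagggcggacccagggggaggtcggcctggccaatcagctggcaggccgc

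Among the libraries, totals ranged from 12940716 to 18434932 counts in 2i and from 4753528 to 13157570 with vitC, so that 3 counts were worth 0.163 to 0.631 CPM. The 4 and 24 hr libraries came from lane 8 and the 16 and 32 hr libraries from lane 7. Each vitC ratio, and the change from 4 to 24 hr, thus compared libraries of the same lane. For 16 and 32 hr against 4 hr, the lane changes together with time and they cannot be told apart. Lars2 and its covarying features took 0.0277%, 0.206%, 5.92%, and 0.564% of the counts in 2i at the 4 times, and 0.0113%, 7.11%, 6.37%, and 4.21% with vitC. ES cell markers were present in every library (Pou5f1 at 280.1 to 504.9 CPM). The summed level of 6 fibroblast markers ranged from 114.5 to 366.8 CPM in 2i and from 95.1 to 674 CPM with vitC, and 1 of the 6, Lum, was at 0 in some libraries. Col1a1 and Col1a2 held most of the sum, at up to 418.6 and 233.8 CPM. In the time model described below, log2 changes at 32 hr were 1.36 for Col1a1, 2.14 for Col1a2, 3.10 for Postn, 0.35 for Col3a1, and −1.80 for Thy1. The 6 primitive endoderm markers summed to 5.22 to 16.9 CPM and the 5 trophoblast markers to 17.1 to 35.7 CPM over all libraries. The part of these differences in the results was not tested. In bulk RNA, fewer cells of a type and less RNA per cell cannot be told apart.

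Compared per length of exon, the mean level over the 8 libraries was highest for Ddit4 at 142 RPKM (58.4 to 201), followed by Fam162a at 56.7 RPKM (37.6 to 84.6). These ranges overlapped each other and lay above those of the other 8 genes, of which none exceeded 26.2 RPKM. The next means were Vegfa at 16.2 RPKM, Bnip3l at 14.6, Narf at 9.30, Ero1l at 8.53, and Ndrg1 at 7.41, and each range overlapped that of its neighbor. Stc2 at 5.02 RPKM, Bnip3 at 3.91, and Ankrd37 at 3.50 were the lowest, also with overlapping ranges.

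With vitC, the 10 genes had a median log2 ratio to 2i of −0.24, −0.30, −0.43, and −0.20 from 4 to 32 hr, whereas the median of all genes lay within 0.03 of 0. The ratio was below 0 for 6, 9, 8, and 7 of the 10 genes at the 4 times. It reached −0.5 or less for 4, 4, 5, and 4 genes, beside 10.5%, 14.4%, 15%, and 10.2% of all genes. A ratio of 0.5 or more was seen for Ndrg1 alone, at 24 and 32 hr. Narf, Ddit4, Vegfa, Ankrd37, and Fam162a were below 0 at all 4 times, as were 10.7% of all genes. Only Narf and Ankrd37 were at −0.5 or less at every time, as were 0.422% of all genes, and Ankrd37 left this rule at 32 hr (−0.23) when the libraries were thinned to equal depth. Since the same contrast chose the genes, nothing is read from these shares.

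**Figure D1:**
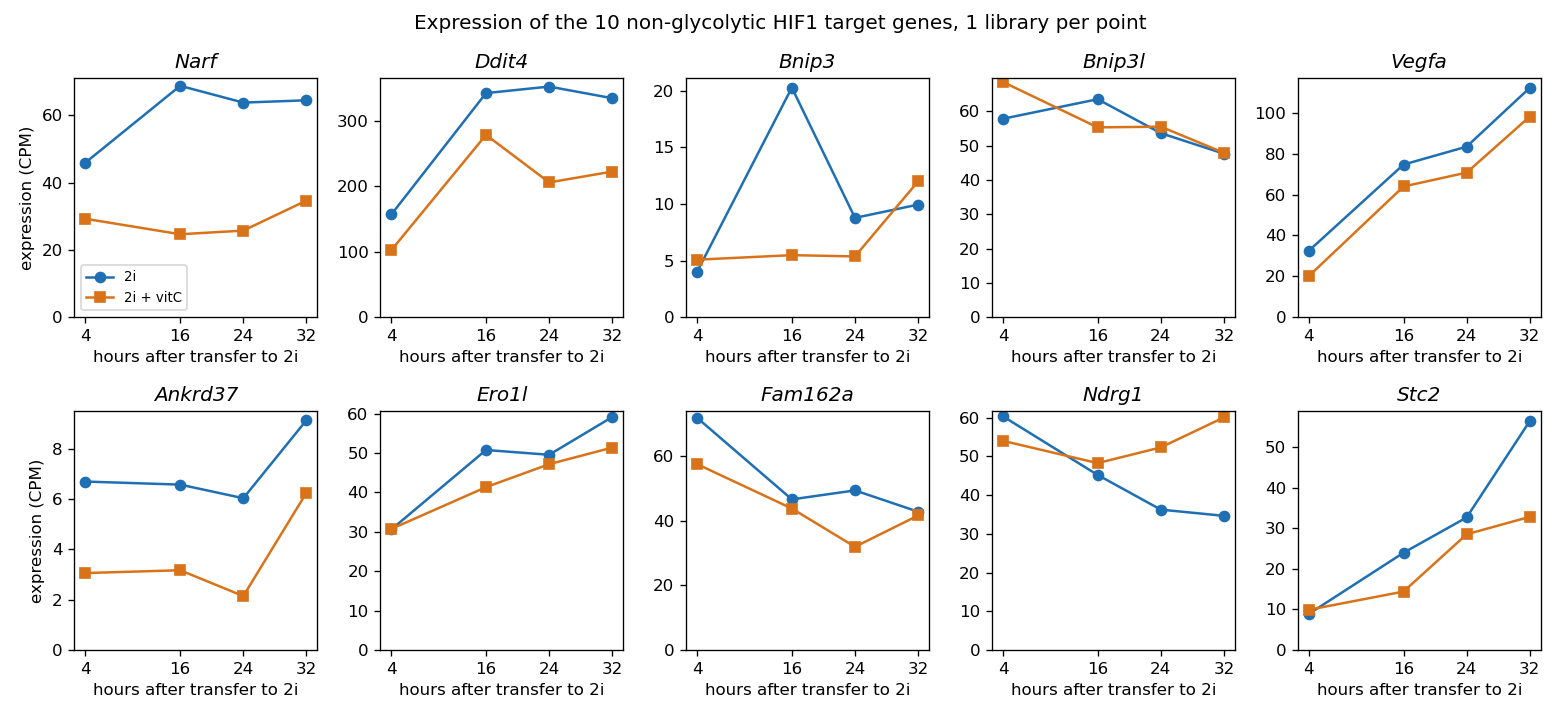
Expression in CPM (y axes, from 0) of the 10 genes at 4, 16, 24, and 32 hr after transfer to 2i (x axes), without vitC (blue circles) and with vitC (orange squares), 1 library per point. The Narf libraries with vitC, at 24.6 to 34.7 CPM, all lie below those in 2i, at 46.0 to 68.8 CPM, and the Vegfa and Stc2 lines climb in both arms.

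**Figure D2:**
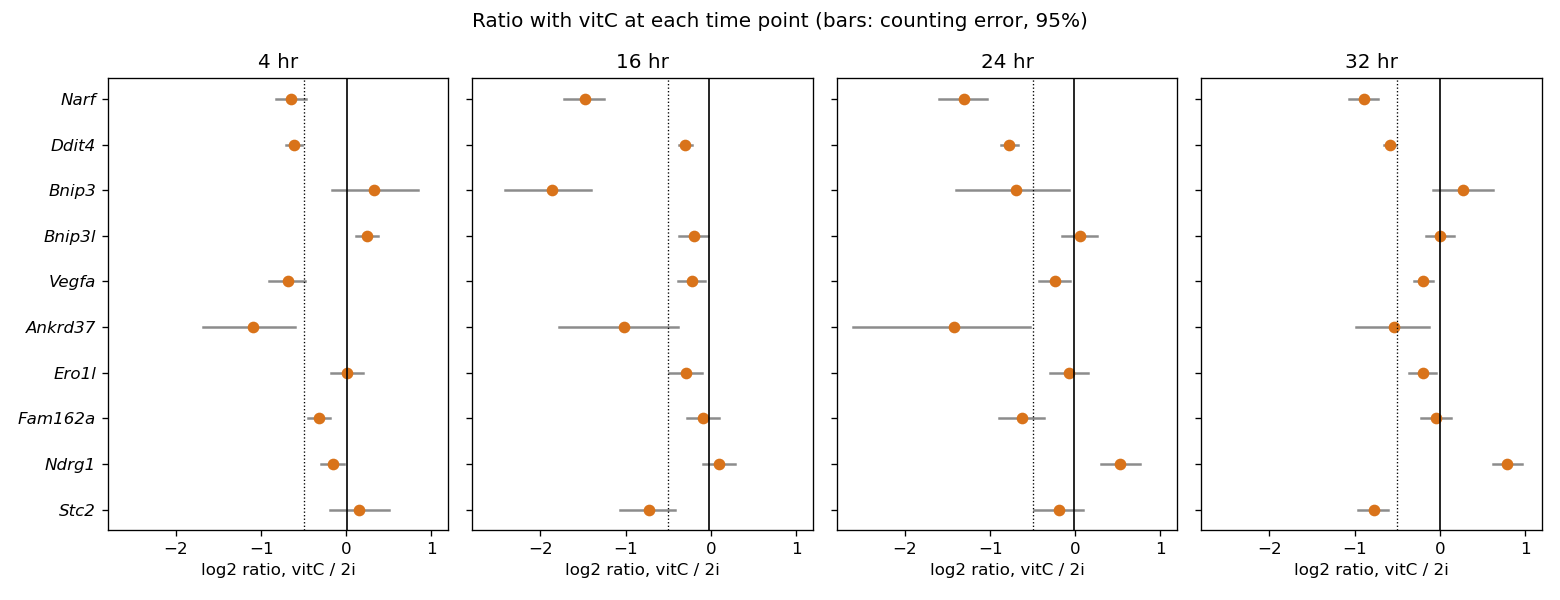
Log2 ratio of vitC to 2i (x axes) of each gene at each time point, with 95% counting intervals as bars. Solid lines mark the median of all genes and dotted lines mark −0.5. Narf and Ankrd37 lie left of the dotted line in each panel, and Ndrg1 moves from −0.16 at 4 hr to 0.79 at 32 hr.

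Narf, named for its binding to prenylated prelamin A, had the most negative mean ratio, −1.08. Its level in 2i was 46.0, 68.8, 63.8, and 64.5 CPM at 4, 16, 24, and 32 hr. With vitC it was 29.3, 24.6, 25.7, and 34.7 CPM. It was the only gene of the 10 whose vitC libraries all lay below all 2i libraries, which held for 1.13% of all genes. Its log2 ratio was −0.65 (95% counting interval −0.83 to −0.48) at 4 hr, −1.48 (−1.72 to −1.25) at 16 hr, −1.31 (−1.60 to −1.03) at 24 hr, and −0.89 (−1.07 to −0.73) at 32 hr. Counting intervals cover counting error only and have no replicate check, here and below.

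Ankrd37, a small ankyrin repeat protein induced by hypoxia, had a mean ratio of −1.02 at a level near the limit of these libraries. It was at 6.69, 6.57, 6.03, and 9.13 CPM in 2i. It was at 3.06, 3.17, 2.15, and 6.25 CPM with vitC, where the 24 hr value rests on 10 counts. Its lowest 2i library was below its highest vitC library, so the arms overlapped across times although vitC was lower at each. The log2 ratio was −1.09 (−1.68 to −0.60), −1.02 (−1.78 to −0.39), −1.43 (−2.61 to −0.54), and −0.54 (−0.98 to −0.12) from 4 to 32 hr. When every library was thinned to 4753528 counts, in 1 random draw, the ratio was −0.56 at 4 hr and −0.23 at 32 hr.

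Ddit4, also called REDD1, restrains mTORC1 through the TSC complex. It was at 157, 343, 353, and 335 CPM in 2i and at 102, 279, 206, and 223 CPM with vitC. The vitC libraries were lower at each time, by a log2 ratio of −0.62 (−0.71 to −0.52) at 4 hr, −0.30 (−0.37 to −0.22) at 16 hr, −0.78 (−0.88 to −0.67) at 24 hr, and −0.59 (−0.66 to −0.52) at 32 hr. Corrected for GC and length, the ratios at 4, 16, and 24 hr were −0.50, −0.17, and −0.60.

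Bnip3 and Bnip3l encode receptors on the outer mitochondrial membrane that recruit mitochondria to autophagosomes, and they differed in course. Bnip3 was at 4.02, 20.3, 8.77, and 9.95 CPM in 2i, with its peak in the 16 hr library, and at 5.07, 5.48, 5.36, and 12.0 CPM with vitC. Its ratio was −1.86 (−2.41 to −1.41) at 16 hr and −0.69 (−1.40 to −0.07) at 24 hr, but 0.33 (−0.17 to 0.84) at 4 hr and 0.27 (−0.08 to 0.62) at 32 hr. The 16 hr libraries thus carry the low mean ratio of −0.49. Bnip3l was at 57.8, 63.6, 53.6, and 47.7 CPM in 2i and at 68.6, 55.3, 55.5, and 47.9 CPM with vitC. Its ratios were small, 0.24, −0.20, 0.05, and 0.01, and 2 of the 4 counting intervals included 0.

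Vegfa, the main ligand for vessel growth, was at 32.5, 74.7, 83.5, and 112 CPM in 2i. It was at 20.1, 64.0, 70.8, and 98.2 CPM with vitC. It was lower with vitC at each time, by −0.69 (−0.91 to −0.48) at 4 hr and by −0.22, −0.24, and −0.19 thereafter, and each counting interval excluded 0. In the thinned draw the ratio was −0.36 at 16 hr and −0.08 at 24 hr, and corrected for GC and length it was −0.15 at 16 hr. Stc2, a secreted stanniocalcin glycoprotein, was at 8.90, 24.0, 32.7, and 56.4 CPM in 2i and at 9.92, 14.4, 28.5, and 32.8 CPM with vitC. Its ratio was 0.15 (−0.19 to 0.50) at 4 hr, −0.73 (−1.06 to −0.42) at 16 hr, −0.19 (−0.49 to 0.09) at 24 hr, and −0.78 (−0.96 to −0.60) at 32 hr.

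Ero1l, the oxidase that renews protein disulfide isomerase in the endoplasmic reticulum, was at 30.6, 50.8, 49.6, and 59.2 CPM in 2i and at 30.7, 41.4, 47.2, and 51.4 CPM with vitC. The ratios, 0.01, −0.30, −0.07, and −0.20, stayed short of −0.5 at each time. Fam162a, a mitochondrial protein linked to cell death in hypoxia, was at 71.9, 46.6, 49.4, and 42.8 CPM in 2i and at 57.5, 43.8, 32.0, and 41.7 CPM with vitC. It had ratios of −0.32 (−0.45 to −0.19), −0.09 (−0.28 to 0.10), −0.63 (−0.90 to −0.37), and −0.04 (−0.22 to 0.14). At 24 hr it was −0.41 corrected for GC and length and −0.42 in the thinned draw, short of −0.5. The lowest library of this gene was the 24 hr one with vitC.

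Ndrg1, induced by hypoxia and in differentiation, moved the other way. It fell in 2i from 60.3 to 45.2, 36.3, and 34.7 CPM, a log2 difference of −0.80 (−0.96 to −0.64) between 4 and 32 hr. With vitC it was at 54.0, 48.3, 52.3, and 60.1 CPM, a difference of 0.15 (0.00 to 0.30) over the same time. The vitC ratio was −0.16 (−0.30 to −0.02) at 4 hr, 0.09 (−0.09 to 0.28) at 16 hr, 0.53 (0.30 to 0.76) at 24 hr, and 0.79 (0.62 to 0.96) at 32 hr. With 1 library per combination the difference between the 2 courses was not tested.

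Time did not choose the genes and was tested with edgeR's quasi-likelihood test in an additive model of time and treatment, with Benjamini-Hochberg adjustment over all 14931 genes. The 3 residual degrees of freedom measure how far the 2 arms depart from a common course and not a spread between cultures. The test also draws each gene's spread toward the trend over all genes. The SE and p of a gene thus rest in part on other genes. Against 4 hr, 5 of the 10 genes rose and 0 fell at 16 hr, 4 rose and 1 fell at 24 hr, and 5 rose and 1 fell at 32 hr. Of all genes, 9.16% rose and 7.24% fell at 16 hr, 11.5% and 8.98% at 24 hr, and 13.5% and 11.8% at 32 hr. The median log2 change of the 10 genes was 0.39, 0.39, and 0.79, and that of all genes was 0.01, 0.01, and 0.00.

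Ddit4, Vegfa, Ero1l, and Stc2 rose at all 3 times. Stc2 rose by a log2 fold change of 1.00 ± 0.24 (SE, adjusted p = 0.017), 1.68 ± 0.25 (0.00088), and 2.20 ± 0.24 (9.8e-05) at 16, 24, and 32 hr. In 2i alone it was 6.24-fold above 4 hr at 32 hr, and with vitC 3.27-fold. Vegfa rose by 1.42 ± 0.16 (adjusted p = 0.00032), 1.57 ± 0.16 (9.6e-05), and 2.02 ± 0.16 (1.1e-05), with a 3.45-fold rise in 2i and a 4.86-fold rise with vitC at 32 hr. Ddit4 had risen by 16 hr and did not climb further, at 1.29 ± 0.15 (adjusted p = 0.00034), 1.09 ± 0.15 (0.00055), and 1.11 ± 0.15 (0.00032). Ero1l rose less, by 0.58 ± 0.16 (adjusted p = 0.026), 0.65 ± 0.16 (0.013), and 0.85 ± 0.16 (0.0022).

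Bnip3 rose at 16 hr, by 1.44 ± 0.44 (adjusted p = 0.043), and at 32 hr, by 1.28 ± 0.43 (0.046), and had 0.61 ± 0.46 (0.38) at 24 hr. At 16 hr the 2i library was 4.90-fold above 4 hr and the vitC library 1.08-fold. Fam162a fell by 0.67 ± 0.17 (adjusted p = 0.018) at 24 hr and by 0.60 ± 0.17 (0.022) at 32 hr, with −0.51 ± 0.17 (0.058) at 16 hr. Narf, Bnip3l, Ankrd37, and Ndrg1 passed the test at no time. Narf had log2 changes of 0.20, 0.16, and 0.36, and its libraries moved up in 2i (0.58 at 16 hr) and down with vitC (−0.25). Bnip3l had −0.40 ± 0.15 (adjusted p = 0.073) and Ankrd37 0.73 ± 0.32 (0.11) at 32 hr.

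Without a treatment term, 2 of the 10 genes, Ddit4 and Vegfa, passed at 16 hr, and 3 passed without the 32 hr libraries. With the Lars2 share as a covariate, an alternative added after seeing the data, 1 gene, Stc2, passed at 24 hr, where 87 of all genes did in place of 3061. The counts at 32 hr ranged from 4 to 6 over the alternatives.

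**Figure D3:**
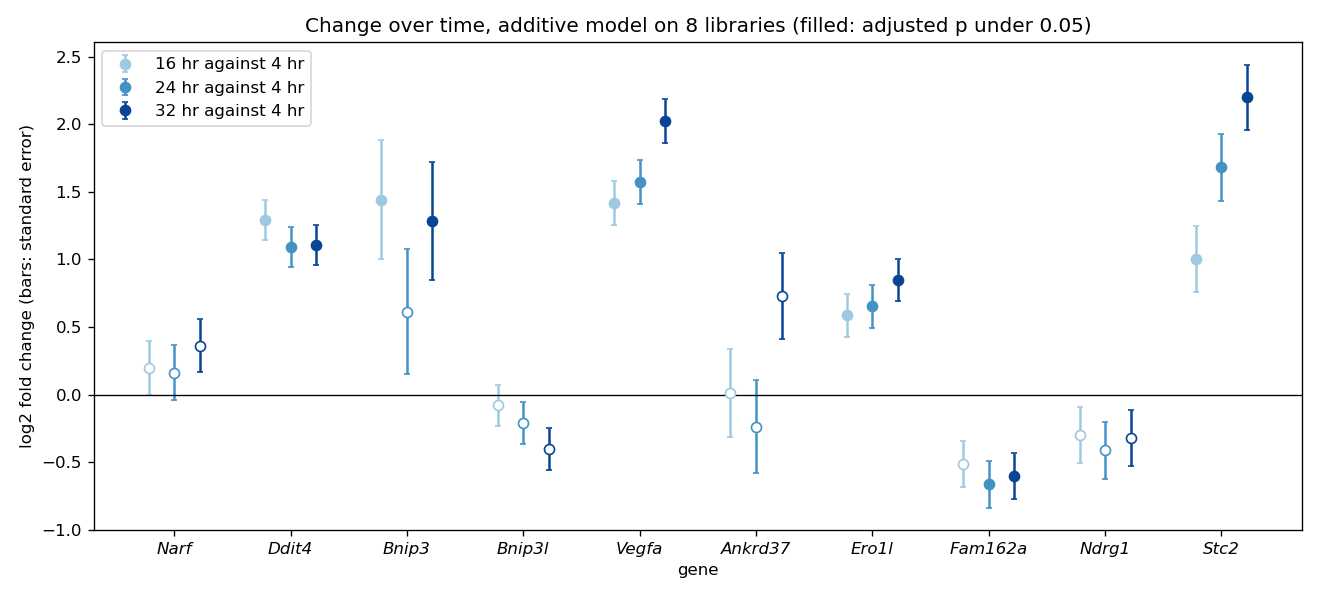
Log2 fold change (y axis) of each gene (x axis) at 16, 24, and 32 hr against 4 hr in the additive model on 8 libraries, with the standard error as bars and filled points for an adjusted p under 0.05. Ddit4, Vegfa, Ero1l, and Stc2 are filled at all 3 times, and the Stc2 and Vegfa points reach 2.20 and 2.02 at 32 hr.

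Hif1a itself was at 201 to 250.7 CPM over the 8 libraries, and its ratio with vitC was between −0.22 and −0.06. It passed the time test in no contrast. Of the 15 genes of the HIF machinery, 4 rose and 1 fell at 16 hr, 6 rose and 1 fell at 24 hr, and 2 rose and 1 fell at 32 hr. Among all genes, 9.16%, 11.5%, and 13.5% rose and 7.24%, 8.98%, and 11.8% fell at these times. Arnt rose at each time, by 0.66, 0.64, and 0.56 (adjusted p = 0.0078, 0.0074, and 0.01). Siah2, a ligase that degrades prolyl hydroxylases, rose by 1.04, 1.08, and 1.55 (adjusted p = 0.024, 0.018, and 0.0016). Egln2 fell at 16 and 24 hr, by 0.64 and 0.61 (adjusted p = 0.023 at both). With vitC, Egln1, itself a HIF1 target, was at 34.5, 56.6, 39.6, and 44.9 CPM in 2i against 25.2, 23.5, 27.2, and 42.8 CPM, a log2 ratio of −1.26 at 16 hr and −0.07 at 32 hr. Egln3, at 2.75 to 6.42 CPM, went the other way late. Its ratios were −0.06, −0.51, 0.63, and 1.18 (0.64 to 1.83) from 4 to 32 hr. Vhl had ratios of 0.23, −0.96, −0.37, and −0.03 from 4 to 32 hr. Of the 15 genes, 0, 4, 1, and 1 had a ratio of −0.5 or less at the 4 times, beside 10.5%, 14.4%, 15%, and 10.2% of all genes. A ratio of 0.5 or more was seen for 1, 4, 6, and 3. No share of all genes is given for this rule, so nothing is read from these counts. The coactivators Crebbp and Ep300 were higher with vitC at 24 hr, by 1.32 and 1.09, as were Hif3a, by 1.88, and Epas1, by 1.27, both at under 10 CPM.

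Beside the 10 genes, 20 glycolytic HIF1 targets had median vitC ratios of −0.13, −0.78, −0.74, and −0.40 from 4 to 32 hr. At the 4 times 1, 13, 13, and 7 of them were at −0.5 or less, beside 10.5%, 14.4%, 15%, and 10.2% of all genes. Of another 35 non-glycolytic HIF1 targets, 32 passed the filter on low counts, with medians of 0.04, −0.29, −0.09, and 0.07 and with 5, 10, 7, and 0 genes at −0.5 or less. At 32 hr the 10 genes had 4 of 10 at −0.5 or less, and the 32 others had 0. The 10 genes were picked on this contrast, and the other lists were drawn up with earlier results of these data known. The lists are therefore set side by side only. Over time, 3 of the 32 rose and 5 fell at 32 hr (13.5% and 11.8% of all genes). Those that changed included Hmox1 (−1.67, adjusted p = 4.1e-05), Zfp395 (1.37, 0.034), and Edn1 (−1.15, 0.033).

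**Figure D4:**
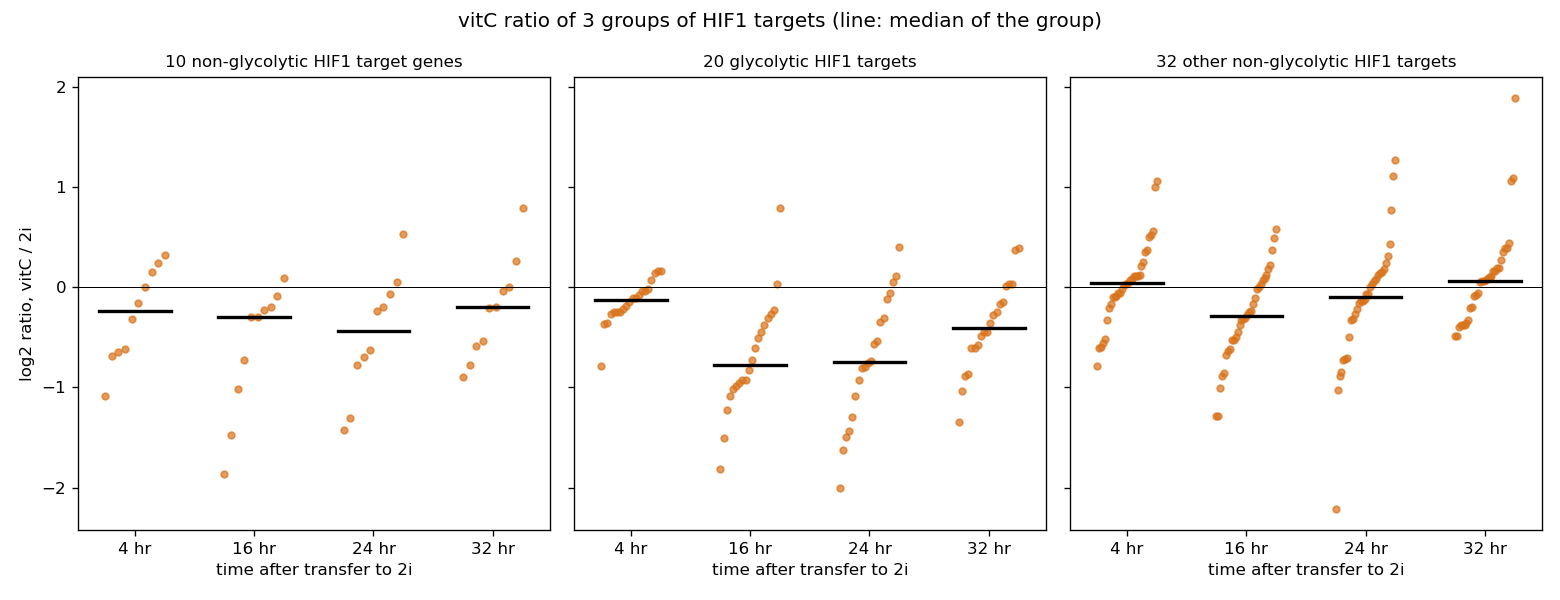
Log2 ratio of vitC to 2i (y axis) at each time (x axes) for the 10 genes, 20 glycolytic HIF1 targets, and 32 other non-glycolytic HIF1 targets, 1 point per gene and a line at the median. The glycolytic medians at 16 and 24 hr, −0.78 and −0.74, lie below those of the 10 genes, −0.30 and −0.43, and the medians of the 32 others lie between −0.29 and 0.07.

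Genes that share a pathway with single members changed in part. Stc2 and Ddit4 are also known as ATF4 targets. Of 15 genes of the ATF4 response, 9 rose and 0 fell at 32 hr (13.5% and 11.8% of all genes). The largest rises were those of Nupr1 (2.62, adjusted p = 6.5e-05), Vldlr (2.53, 0.00023), Chac1 (2.36, 0.0019), and Trib3 (1.14, 0.0017). The lane changes together with time in this contrast. At 24 hr, in the same lane as 4 hr, 8 of the 15 rose and 0 fell (11.5% and 8.98% of all genes). The log2 changes there were 2.23 for Nupr1, 2.04 for Vldlr, 1.81 for Chac1, and 0.87 for Trib3. Whether ATF4 acted on Stc2 or Ddit4 in these cells was not tested. Among 12 regulators of mTORC1, Sesn3 rose (1.21, adjusted p = 0.002) and Ddit4l, the paralog of Ddit4, fell (−1.39, 0.0022), as did Rheb (−0.54, 0.024). Among 16 mitophagy and autophagy genes 3 rose and 2 fell at 32 hr, with Calcoco2 the highest (1.07, adjusted p = 0.0011). Among 16 genes of oxidative folding Xbp1 rose (0.53, adjusted p = 0.022) and Hspa5, the chaperone BiP, fell (−1.15, 0.00044). Of 8 VEGF ligands and receptors, only Vegfb rose, by 1.28 (adjusted p = 0.014). Of 6 paralogs tested, Ndrg4 fell (−0.57, adjusted p = 0.045). Among all genes, 13.5% rose and 11.8% fell at 32 hr. The lists, that of ATF4 included, were drawn up with earlier results of these data known. Nothing is read from these counts.

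The 10 genes did not follow a common profile over the 8 libraries. The correlation of each gene with the mean of the other 9 was 0.84 for Ero1l, 0.79 for Ddit4, 0.77 for Bnip3, 0.75 for Vegfa, 0.70 for Stc2, 0.69 for Narf, and 0.64 for Ankrd37, but −0.37 for Fam162a, −0.60 for Bnip3l, and −0.67 for Ndrg1. Outside the 10 genes, the 5 most like their mean profile among 10448 protein-coding genes with at least 5 CPM were Pde3b (r = 0.993), Ccng2 (0.974), Phka2 (0.973), Fam3a (0.972), and Rpain (0.970). Ccng2, an atypical cyclin, was at 13.5, 36.4, 25.7, and 33.3 CPM in 2i and at 10.97, 18.9, 16.7, and 28.2 CPM with vitC. The points share 8 libraries, their lanes, and their depths, and no p is given. These libraries include the vitC contrast that chose the 10 genes, so part of the likeness follows from the choice.

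For 4 of the genes, exons overlap those of a gene on the opposite strand. Whether reads there were added, left out, or unaffected is not known, since the strand setting is not given in the sources used here. In GENCODE M21, exons of Wdr5b overlap 168 of the 850 exonic bases of Fam162a, those of Lrp2bp and Ufsp2 overlap 349 and 57 of 1539 for Ankrd37, those of Gm17035 and Gm2895 overlap 419 and 137 of 6596 for Ndrg1, and those of Gm45507 overlap 504 of 2265 for Bnip3. All are on the opposite strand, and all but Gm45507 were among the counted genes.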

How the data were processed

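Total RNA from E14 ESCs was depleted of ribosomal RNA and sequenced as 50 bp single-end TruSeq libraries, 1 per combination of treatment and time. The authors deposited raw counts per Ensembl gene, and the submitters' processing notes name GSNAP, HTSeq, and NCBIM37 (mm9); the annotation release and strand setting are not given in the sources used here. Symbols, exon lengths, and GC content came from GENCODE M21, which held 32604 of the 37263 identifiers. Lanes were read from the names of the deposited data. No pair of libraries held identical values.

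CPM and log2 CPM (prior count 2, TMM factors) were computed in R 4.3.3 with edgeR 4.0.16, for the 14931 genes that reached 1 CPM in 2 or more libraries. RPKM used merged exon lengths. Intervals for ratios are 95% counting intervals. Without molecular identifiers, reads may be copies of one molecule, so these intervals and the floor of 3 counts cover only counting error. Time was tested in edgeR (threshold 0.05), and the procedure was tested on simulated data, whose outcome is not reported here. Alternatives were DESeq2 1.42.0, other scalings, filters, and prior counts, thinning, omission of time points, and a GC and length correction (97.2% of genes had both values).

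All 10 genes are reported. Other genes named are the HIF machinery, up to 4 of each other list with the largest change past the rule used, and the 5 most like the 10 genes. 1 gene covered by this rule is not reported here. The genes and all lists were chosen with earlier results of these data known.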

Additional observations from a re-analysis of the deposited data

How the results depend on the processing

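All 56 recomputed counts and medians of the vitC ratios kept their direction, with counts within 1.5 times the main one. Single-gene vitC ratios moved beyond their counting interval in 4 cases, Ddit4 at 4, 16, and 24 hr after the GC and length correction and Ankrd37 at 4 hr after thinning (1 draw). Ratios near 0 changed sign: Ero1l at 4 hr went from 0.01 to −0.08, and Bnip3l from 0.05 to −0.08 at 24 hr and from 0.01 to −0.09 at 32 hr. The number of the 10 genes that passed the time test at 16 hr was 5, and it was 2 without a treatment term and 3 without the 32 hr libraries. At 24 hr it was 5, and 1 with the share of Lars2 and its covarying features as a covariate, added after seeing the data. The causes were not tested. No ratio of 0.5 or more in size and no called time change reversed. Of the single-gene time results, 15 lost their call under an alternative and 1 gained it, Fam162a at 16 hr with no filter on low counts (−0.51, edgeR adjusted p = 0.038). Bnip3 at 16 hr lost its call in 3 alternatives, with adjusted p from 0.05 to 0.08. Over all genes, calls without the treatment term were 1289 in place of 2448 at 16 hr and 1889 in place of 3061 at 24 hr, and with the Lars2 covariate they were 801 at 16 hr and 87 at 24 hr. Ankrd37 and Bnip3 had the lowest mean levels of the 10 genes, at 5.38 and 8.87 CPM. The time tests were not repeated on thinned libraries.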
